A study of Homo sapiens with 4 samples.

Results

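The clustered protocadherins are cell-surface cadherins encoded by 3 gene arrays, called alpha, beta and gamma, that lie one after another on chromosome 5. Their members were taken as the rows whose gene symbol matches the naming pattern of these arrays. That gave 57 of the 25411 genes in the deposited tables, with 15 in the alpha, 19 in the beta and 23 in the gamma cluster. RNA sequencing was done on BEAS-2B, an immortalised cell line from human bronchial epithelium, and asked which genes differ after exposure to cadmium. Control cells were grown for 72 h without added metal, and treated cells were grown for 72 h with 5 µM cadmium chloride, a toxic metal salt. Each group had 2 libraries, which the labels give as replicates 1 and 2 without saying that they came from separate cultures. The p-values therefore cover only the spread seen between libraries, and that spread may be technical. Both control libraries are labelled experiment 1 and both cadmium libraries experiment 2, and whether this marks a batch or only the arm is not given. If it marks a batch, treatment and batch cannot be told apart in any comparison below.

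Clustered protocadherins are calcium-dependent adhesion proteins that bind their own isoform on neighbouring cells, and they are best known from neurons, where each cell uses its own small combination of isoforms. In the alpha and gamma clusters each variable exon has its own promoter, encodes a whole extracellular and membrane-spanning part, and is spliced to constant exons shared by the cluster. Beta genes have a single coding exon and no shared constant exons. Which promoters are used is known to depend on DNA looping by CTCF and cohesin and on DNA methylation. Most of the variable promoters carry a conserved sequence element with the core CGCT. C-type isoforms, which lie at the end of the alpha and gamma clusters, are known to follow partly different rules.

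The tables place all members on the plus strand of chromosome 5 in build hg19. The alpha cluster runs from 140165721 to 140391929, the beta cluster from 140430961 to 140627801, and the gamma cluster from 140710252 to 140892546. Library depth ranged from 8609243 reads in control replicate 2 to 29937242 in cadmium replicate 1, with 26529403 in control replicate 1 and 15537382 in cadmium replicate 2. Levels are given as CPM, read counts set to a common library size with trimmed-mean (TMM) scaling. A count of 3 reads, the floor used for members with no read, was worth 0.115 CPM in control replicate 1, 0.356 in control replicate 2, 0.0980 in cadmium replicate 1 and 0.190 in cadmium replicate 2. The shallowest library therefore limits what can be said of most members. The labelled cell type was checked against its markers, and KRT8 and KRT18, keratins of simple epithelia, had many reads in every library. The basal-cell genes KRT5 and KRT14 had 1 read each, TP63 had no read, and CDH1, the epithelial cadherin, had 11 and 1 control reads against 28 and 15 with cadmium. Of 7 fibroblast markers COL1A1 and THY1 were also abundant. COL1A1, a collagen chain, had 4379 and 3538 CPM in the controls against 3263 and 3068 with cadmium. THY1 had 548 and 536 against 588 and 543. COL1A2 averaged 1.45 CPM over the 4 libraries, LUM 0.271 and PDGFRA 0.0336, and COL3A1 and DCN had no read. Summed, fibroblast markers stood at 4929 and 4075 CPM in the controls, most of it COL1A1. That was above the 1307 and 1547 CPM of the epithelial list. Of 13 neuronal marker genes 6 had no read, including MAP2, DCX and STMN2. In such bulk RNA, fewer cells using a gene and less RNA per cell cannot be told apart.

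Promoter sequence is shown first because it is what members with and without reads have in common. RefSeq promoters (GRCh38.p14, 250 bases before to 50 after the start) were found for 47 of the 57 members, as 52 entries because 5 genes had 2. CGCT was searched on the gene's strand and lay in 51 of the 52 (98.1%), against 54.3% of 35116 promoters of all genes. Between 100 and 30 bases before the start, a window chosen after the positions were seen, it lay in 43 of 52 (82.7%) against 21.6% of all promoters. Its median position was 57 bases before the start. The windows of 30 bases below are on the plus strand with CGCT in capitals. They are 2 silent and 2 detected alpha members and beta and gamma members at low and high levels:
PCDHA1: attggccacatgatgtCGCTgtacaccaca
PCDHA2: tttagccacatgatgtCGCTgtccaccata
PCDHA4: tggagccacatgatgtCGCTctttaccaca
PCDHA7: gatggccacatgatgtCGCTctttaccgca
PCDHB3: agcgaacgcatggtggCGCTgttgactaag
PCDHB2: aagagacgcggggtggCGCTgcagccttag
PCDHB14: tggagacacatggtggCGCTacaggataag
PCDHB16: tgagaacgcgtggtggCGCTgcaggttaag
PCDHGA4: ttaagactctgggtgtCGCTgttcaccaat
PCDHGA9: ttaggactctgagcgcCGCTgttgatcaac
PCDHGB4: tgctgactctgggcgcCGCTgttggccaaa
PCDHGB5: tgctgactctgggcgcCGCTgttggccaaa

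In GRCh38 the window of PCDHA4 is chr5:140806979-140807008 and that of PCDHB16 is chr5:141182310-141182339. The bases before the core differ by cluster. The word TGTCGCT, searched on both strands like the other words of this paragraph, was in 10 of 13 alpha promoters (76.9%) against 1.76% of all promoters. TGGCGCT was in 13 of 14 beta promoters (92.9%) against 4.08%, and GCCGCTGT in 13 of 25 gamma promoters (52.0%) against 1.64%. These words contain the core and were chosen after counting in these promoters, so their shares are a description. The windows of PCDHGB4 (chr5:141387617-141387646) and PCDHGB5 (chr5:141397863-141397892), the most abundant gamma members after PCDHGC3, have the same 30 bases. The windows of the less abundant PCDHGB6 and PCDHGB7 are also alike, with another sequence. PCDHGB4, PCDHGB5 and PCDHGB6 each have 2 cores in the searched stretch, and only the one nearest the median position was taken. The PCDHGB6 and PCDHGB7 windows lack GCCGCTGT and may show a different core, so whether the 2 sequences correspond was not tested. The core was found in members with and without reads. It lay between 100 and 30 bases before the start in 34 of 42 promoters of members with reads (81.0%) and in 9 of 10 promoters of members with no read (90%). The 5 second entries all belong to genes with reads and lacked it there, so by gene it was 34 of 37 with reads. PCDHA9, PCDHB5, PCDHB8 and PCDHGB2 lacked it there in their only entry. The members with no read were alpha genes and PCDHB1, so having no read and cluster cannot be told apart here. The promoters of the members had a median GC content of 40.7%, against 58.7% for all promoters.

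**Figure D1:**
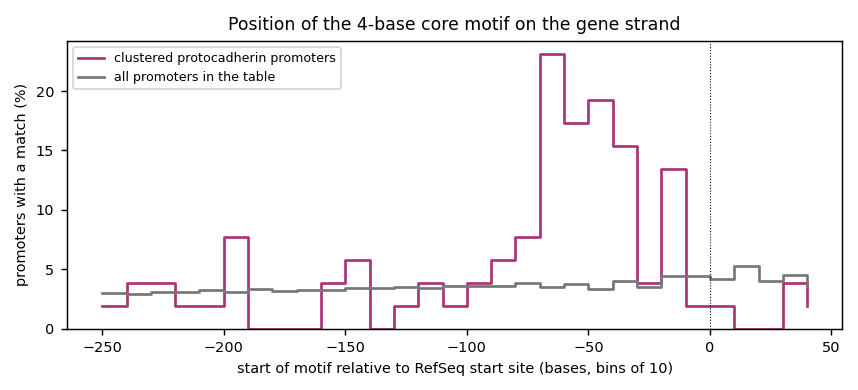
The share of promoters in which CGCT on the gene's strand starts in each bin (vertical axis, percent) is plotted against distance from the RefSeq start in bases (horizontal axis) for the 52 clustered protocadherin promoters and for 35116 promoters of all genes. The members peak at 23.1% in the bin at 70 bases before the start, where all promoters have 3.47%.

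Most clustered protocadherin reads in these libraries were assigned to a single gene. PCDHGC3, a C-type gamma isoform known for binding the Wnt pathway scaffold axin, had 2601 reads in control replicate 1, 690 in control replicate 2, 2364 in cadmium replicate 1 and 1350 in cadmium replicate 2. Its level was 99.9 and 82.0 CPM in the controls against 77.2 and 85.4 CPM with cadmium. Per length, in the deposited RPKM averaged over the 4 libraries, PCDHGC3 stood at 16.9, far above PCDHGB4 at 2.34 and PCDHGB5 at 2.31. The next members were PCDHB5 at 0.713, PCDHGB7 at 0.622, PCDHB16 at 0.612 and PCDHGA11 at 0.515 RPKM. PCDHGB4 and PCDHGB5 did not differ beyond their spread, with 12.5 ± 0.174 and 11.3 ± 1.30 CPM in the controls (SD, n = 2 libraries). At the other end 12 members had no read in any library, and 32 had reads in all 4.

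**Figure D2:**
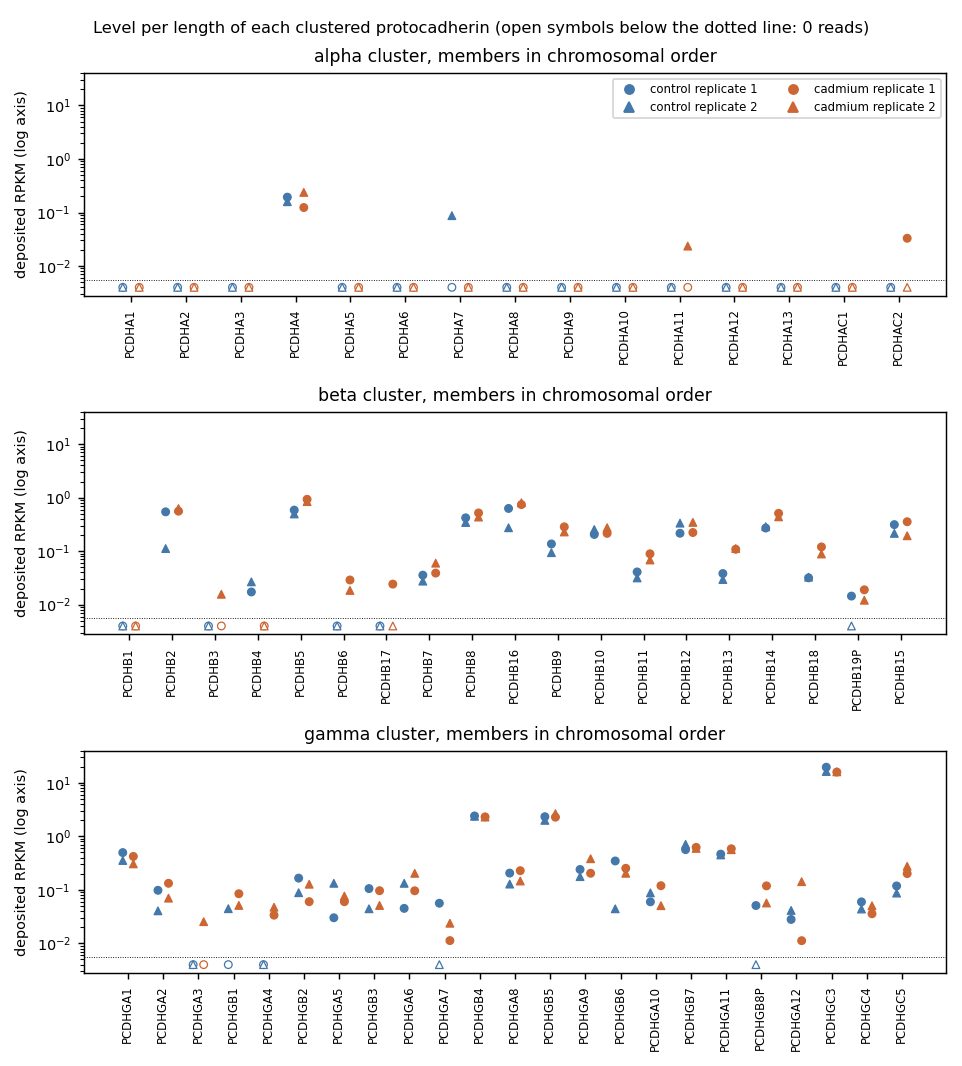
Deposited RPKM (log vertical axis) of the 57 members in chromosomal order, in a panel for each cluster, with blue for control, orange for cadmium, circles for replicate 1 and triangles for replicate 2, and open symbols below the dotted line for 0 reads. PCDHGC3 lies from 15.8 to 19.5 RPKM, PCDHGB4 and PCDHGB5 average 2.34 and 2.31, and in the alpha panel PCDHA4 alone has reads in all 4 libraries.

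The alpha cluster was close to silent. Of its 15 rows 11 had no read, namely PCDHA1, PCDHA2, PCDHA3, PCDHA5, PCDHA6, PCDHA8, PCDHA9, PCDHA10, PCDHA12, PCDHA13 and the C-type PCDHAC1. All alpha reads together were 15 and 4 in the controls against 12 and 12 with cadmium. PCDHA4 held nearly all of them, with 15 and 3 reads in the controls against 10 and 11 with cadmium. PCDHA7 had 1 read in control, PCDHA11 had 1 read with cadmium, and PCDHAC2, a C-type isoform known for the spacing of serotonergic axons, had 2. For genes with no read these depths allow up to 3 reads, and the counts cover counting error only.

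The beta cluster was broadly but weakly used. Of 19 rows only PCDHB1 had no read, and 13 had reads in all 4 libraries. Its reads summed to 353 and 83 in the controls against 555 and 280 with cadmium, or 13.6 and 9.86 CPM against 18.1 and 17.7 CPM. PCDHB16 had the most reads over the 4 libraries, from 14.5% of the beta reads in control replicate 2, where PCDHB5 had more with 14 reads against 12, to 24.1% in control replicate 1. PCDHB5 led per length, as given above. In the gamma cluster every one of 23 rows had a read in some library and 18 had reads in all 4. Without PCDHGC3 the gamma rows summed to 40.9 and 34.7 CPM in the controls against 39.8 and 43.2 with cadmium. The B subfamily exceeded the A subfamily although it has 8 rows against 12. Gamma B members summed to 31.0 and 26.6 CPM in the controls against 28.6 and 30.9 with cadmium, and gamma A members to 9.03 and 7.60 against 10.03 and 10.6.

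How the deposited counts divided reads between members that share sequence is not given in the sources used here. In GENCODE v29 transcripts, which matched 54 of the 57 members by RefSeq accession, the share of 50-base stretches found in another clustered protocadherin had a median of 58.4% in alpha, 50.5% in gamma and 14.4% in beta members. It was 45.7% for PCDHGC3 and 59.4% for PCDHGB4. The length implied by dividing each count by its RPKM was nearly the same in all libraries for beta genes, with a highest-to-lowest ratio of at most 1.02. For gamma genes that ratio ran from 1.02 to 2.05, and for PCDHA4 it was 1.36. The highest gamma ratios were in genes with 1 read in some library, such as PCDHGA2 at 2.05 and PCDHGB6 at 1.96. Among gamma genes with more reads it was 1.03 for PCDHGB4 and PCDHGB5, 1.10 for PCDHGC3 and 1.34 for PCDHGB7. Alpha and gamma counts of single genes are therefore uncertain, libraries were compared in CPM, and PCDHB8 and PCDHB10, with 45.8% and 35.4% shared stretches, are uncertain among the beta genes.

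No clustered protocadherin passed the test for a difference between cadmium and control. Enough reads for the fit were found in 23 of the 57 members, 1 alpha, 9 beta and 13 gamma. Of these 0 were higher and 0 lower at an adjusted p under 0.05 (edgeR quasi-likelihood test, two-sided, Benjamini-Hochberg over 13663 genes). In the same fit 8.85% of all tested genes were higher and 7.66% lower, 16.5% in all. The smallest adjusted p among the members was 0.114, and 4 had an unadjusted p under 0.05, against 34.0% of all genes. The shares of all genes are over every read level, whereas a member such as PCDHGB3 was tested on 34 reads in all. DESeq2 and limma-voom also called 0 members, with 0 and 4 at an unadjusted p under 0.05, and 26 of the 45 members with reads have no adjusted p from DESeq2. The members had a median biological coefficient of variation of 0.184 against 0.0984 for all tested genes. These sets were not matched for level, and only 3 members reached 5 CPM in at least 2 libraries. The median log2 fold change of the 23 tested members was 0.11, from -0.70 to 1.12, beside 0.0019 for all genes. The value lay above 0 for 15 of 23 members, and for 50.2% of all genes.

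**Figure D3:**
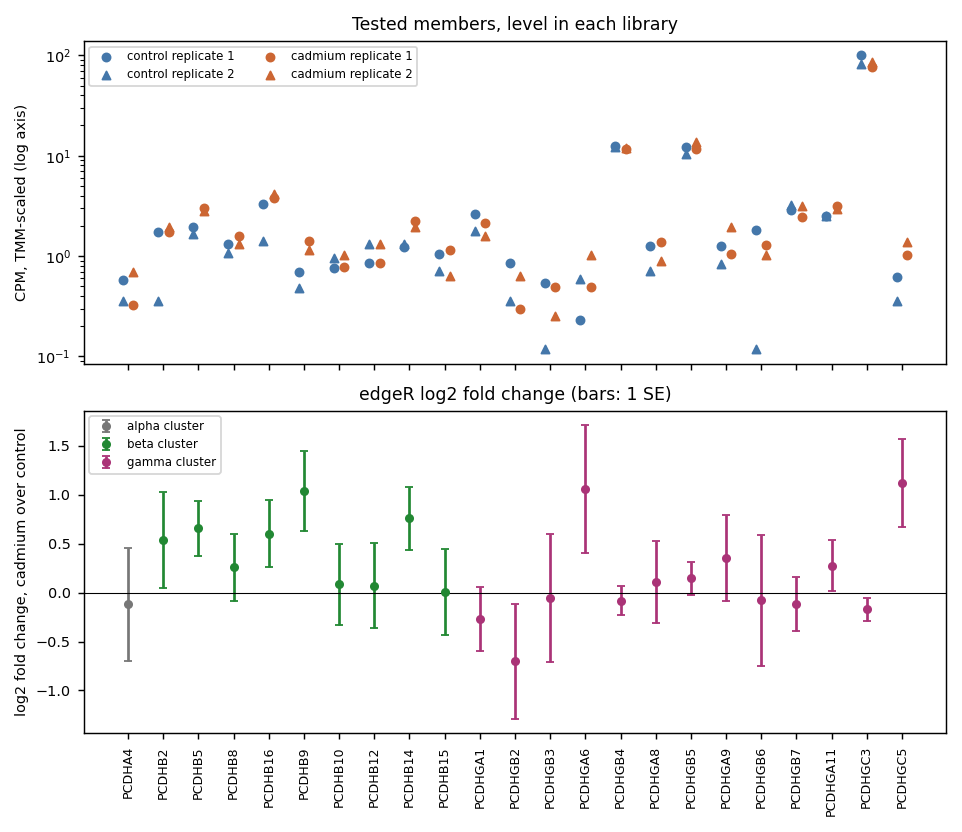
The upper panel plots CPM in each library (log axis, circles for replicate 1, triangles for replicate 2) and the lower panel edgeR's log2 fold change of cadmium over control with bars of 1 SE, for the 23 tested members in chromosomal order. The 9 beta values all lie at or above 0, from 0.0041 to 1.04, while 6 gamma values lie above 0 and 7 below, and no member passed an adjusted p of 0.05.

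In the beta cluster all 9 tested members had a fold change above 0, with a median of 0.53, but single genes stayed within what these libraries can resolve. PCDHB9 had 0.691 and 0.475 CPM in the controls against 1.41 and 1.14 CPM with cadmium. Both cadmium libraries lay above both controls, and the log2 fold change was 1.04 (SE 0.41, edgeR adjusted p = 0.114). PCDHB14 had 1.23 and 1.31 CPM against 2.25 and 1.96, again without overlap, with 0.76 (SE 0.32, edgeR adjusted p = 0.137). PCDHB5 had 1.96 and 1.66 CPM against 3.04 and 2.78, and its controls stayed below both cadmium values, with 0.66 (SE 0.28, edgeR adjusted p = 0.143). These 3 genes and PCDHGC5 are the members with an unadjusted p under 0.05. The 3 beta genes encode single-exon adhesion isoforms.

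For the other abundant beta genes control replicate 2, the shallowest library, stood apart. PCDHB16 had 3.27 and 1.43 CPM in the controls against 3.76 and 4.11 with cadmium, a log2 fold change of 0.60 (SE 0.34, edgeR adjusted p = 0.256). PCDHB2 had 1.73 and 0.356 CPM against 1.73 and 1.96, with 0.53 (SE 0.49, edgeR adjusted p = 0.487). In both genes control replicate 1 came close to the cadmium libraries, and the control counts, 85 and 12 reads for PCDHB16 and 45 and 3 for PCDHB2, differed beyond counting error (exact binomial test, adjusted p = 0.0413 and 0.0258 over 38 members). Without control replicate 1 both passed, PCDHB16 with 1.45 (edgeR adjusted p = 0.0328) and PCDHB2 with 2.34 (edgeR adjusted p = 0.0391). The remaining tested beta genes PCDHB8, PCDHB10, PCDHB12 and PCDHB15 had fold changes of 0.26, 0.085, 0.071 and 0.0041, each smaller than its standard error. Groups did not overlap for 6 of the 9 beta genes, all with cadmium higher. That pattern was seen in 31.3% of all tested genes. PCDHB2 is among the 6 only by 1.731 CPM in cadmium replicate 1 against 1.729 in control replicate 1.

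The single alpha gene that could be tested, PCDHA4, had 0.576 and 0.356 CPM in the controls against 0.327 and 0.696 with cadmium. The groups overlapped, and the log2 fold change was -0.12 (SE 0.57, edgeR adjusted p = 0.908). Its 39 reads in all leave a wide error.

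Gamma members went in no common direction. PCDHGC3, the member with the most reads, averaged 90.9 ± 12.7 CPM in the controls against 81.3 ± 5.81 with cadmium (SD, n = 2 each), and the groups overlapped. Its log2 fold change was -0.17 (SE 0.12, edgeR adjusted p = 0.338). The control libraries differed from each other beyond counting error (exact binomial test, adjusted p = 0.000105), and without control replicate 2 the gene was called lower at -0.31 (edgeR adjusted p = 0.0428). PCDHGB4 had 12.6 and 12.4 CPM in the controls against 11.8 and 11.8 with cadmium. It is the only tested member whose cadmium libraries both lay below both controls, a pattern of 30.8% of all tested genes, with -0.083 (SE 0.15, edgeR adjusted p = 0.739). PCDHGB5 had 12.2 and 10.3 CPM against 11.6 and 13.7, overlapping, with 0.14 (SE 0.17, edgeR adjusted p = 0.597). PCDHGB7 had 2.88 and 3.21 CPM against 2.45 and 3.16, also overlapping, with -0.12 (SE 0.28, edgeR adjusted p = 0.801).

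PCDHGC5, a C-type isoform, had the largest fold change among the tested members. Its level was 0.615 and 0.356 CPM in the controls against 1.01 and 1.39 with cadmium, without overlap, from 16, 3, 31 and 22 reads. The log2 fold change was 1.12 (SE 0.45, edgeR adjusted p = 0.122). PCDHGA6 had 0.231 and 0.594 CPM against 0.490 and 1.01, overlapping, with 1.06 (SE 0.65, edgeR adjusted p = 0.295). PCDHGA11 had 2.54 and 2.49 CPM in the controls against 3.17 and 2.91 with cadmium, and a fold change of 0.28 (SE 0.26, edgeR adjusted p = 0.498). PCDHGB6 was far apart in the control libraries. It had 47 reads in control replicate 1 and 1 in control replicate 2, a difference beyond counting error (exact binomial test, adjusted p = 0.000633), and 39 and 16 reads with cadmium. The other tested gamma members, PCDHGA1, PCDHGB2, PCDHGB3, PCDHGA8 and PCDHGA9, had fold changes from -0.70 to 0.35, with adjusted p from 0.440 to 0.962 (edgeR). PCDHGC4, a C-type isoform known for a role in the survival of neurons, had 8 and 1 reads in the controls against 5 and 4 with cadmium and was not tested.

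The mix of clustered protocadherin reads within each library does not depend on how libraries are scaled. It does depend on how reads of shared sequence were divided between members, which is not given. The length implied for PCDHGC3 was 5024 and 4934 bases in the controls against 4986 and 5430 with cadmium. Whether that division shaped the shares was not tested. PCDHGC3 made up 64.5% and 64.6% of all reads of the 57 members in the controls against 57.0% and 58.1% with cadmium. Exact 95% binomial intervals were 63.0–66.0% and 61.6–67.4% in the controls against 55.5–58.5% and 56.03–60.1% with cadmium. Both cadmium values lay below both controls, with a mean difference of -6.99 percentage points. The SDs over 2 libraries were 0.0490 points in control and 0.769 with cadmium. The control SD is far narrower than the counting intervals above, so it understates the error. Within the gamma cluster alone the PCDHGC3 share was 70.9% and 70.3% in the controls against 66.0% and 66.4% with cadmium, also without overlap. The beta share of all member reads was 8.75% and 7.76% in the controls against 13.4% and 12.0% with cadmium. Because shares must add up, the beta share was also taken without PCDHGC3, and it was 24.6% and 21.9% in the controls against 31.1% and 28.7% with cadmium. With 2 libraries against 2 an exact two-sided permutation test cannot give a p below 0.333, so no p is given for these shifts. Reads without molecular identifiers make the intervals cover counting error only. Leaving out each library in turn kept this difference between -7.53 and -6.45 points. The total of the 57 members was 141 ± 19.8 CPM in the controls against 141 ± 8.21 with cadmium (SD, n = 2 each).

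**Figure D4:**
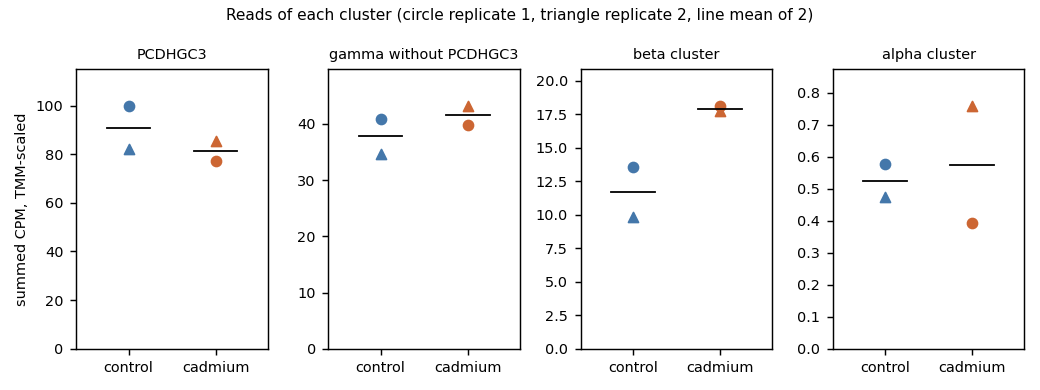
Summed CPM (linear axes from 0, each panel with its own scale) of PCDHGC3, the other gamma members, the beta cluster and the alpha cluster in each library, with a line at the mean of 2. Beta sums are 13.6 and 9.86 in the controls against 18.1 and 17.7 with cadmium, while the other 3 panels overlap between the groups.

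Of the 34 members left out of the fit 22 had some reads. Among these, 7 had reads with cadmium alone (PCDHA11, PCDHAC2, PCDHB3, PCDHB6, PCDHB17, PCDHGA3 and PCDHGA4), from 1 to 9 each, and PCDHA7 and PCDHB4 had 1 and 3 reads in control alone. The cadmium libraries together were deeper, and the share of all genes with reads in 1 group alone was not counted. These counts are therefore a description. Ratios of cadmium to control, corrected for library size, could be formed for 13, and 11 were above 1, against 58.4% of 2726 untested genes with reads in both groups. The counting interval lay above 1 for 4 of them and below 1 for 0, against 7.92% and 1.94% of those genes. The 4 are named after their values were seen. PCDHGB1 had 0 and 1 reads in the controls against 13 and 4 with cadmium, a ratio of 12.6 (95% counting interval 1.98–527). PCDHGA2 went from 8 to 27 reads per group with a ratio of 2.51 (1.11–6.38), PCDHB13 from 5 to 20 with 2.97 (1.08–10.1), and PCDHB18, a pseudogene, from 4 to 18 with 3.34 (1.10–13.6). PCDHGA4 had 0 control reads and 9 with cadmium. Set against a floor of 3 reads over the control group this is 2.23-fold, which leaves out counting error in the 9 reads. These intervals leave out the spread between libraries, and with all genes kept in the fit the smallest adjusted p among all members was 0.0643, for PCDHGB1 (edgeR). The other pseudogene rows PCDHB17, PCDHB19P and PCDHGB8P were not tested, and PCDHGB8P had 3 control reads and 10 with cadmium. PCDHGA12 had 1 and 12 reads in the cadmium libraries, the one member whose cadmium libraries differed beyond counting error.

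The authors' deposited table of the same comparison has an adjusted p under 0.05 for 1981 genes and for 0 of the 57 members. Its smallest adjusted p among them is 0.401, for PCDHB16, and 42 members stand at 1. These values do not follow the authors' unadjusted p, which is 0.158 for PCDHGC5, among the 42, and 0.169 for PCDHB16. A value of 1 may therefore stand for a gene left out of the adjustment, and the rule used is not given. For PCDHGC3 the authors' deposited table gives mean RPKM of 17.9 in control and 15.9 with cadmium with an adjusted p of 0.472.

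Protocadherins outside the clusters were read from a separate list. Of its 13 genes 5 were tested, 3 rose and 0 fell, where 8.85% of all tested genes were higher and 7.66% lower. PCDH1, which lies beyond the gamma cluster on the same chromosome and is known as an airway epithelial adhesion protein, went from 0.922 and 0.238 CPM to 4.05 and 2.41 CPM, a log2 fold change of 2.21 (SE 0.48, edgeR adjusted p = 0.0203). PCDH18 rose by 2.80 (SE 0.62, edgeR adjusted p = 0.0209) and PCDH10 by 2.10 (SE 0.52, edgeR adjusted p = 0.0314), from few control reads. PCDH7 had 0.61 and PCDH12 0.91 (edgeR adjusted p = 0.236 and 0.159). Whether these genes and the clustered ones differ in response was not tested as a group. Of 9 tested large or atypical cadherins, 2 rose and 0 fell, namely CELSR2 by 0.63 and CELSR1 by 0.47 (edgeR adjusted p = 0.00689 and 0.0179).

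Genes known to control promoter choice in the clusters were also read. Of 29 tested regulators 1 rose and 2 fell, beside 8.85% and 7.66% of all tested genes. EHMT2, a histone H3 lysine methyltransferase, rose by 0.42 (edgeR adjusted p = 0.0179), while the corepressor TRIM28 fell by 0.34 and the nuclear scaffold protein HNRNPU by 0.32 (edgeR adjusted p = 0.0205 and 0.0497). CTCF had 76.3 and 64.6 CPM in the controls against 59.4 and 66.3 with cadmium, overlapping, with -0.17 (SE 0.11, edgeR adjusted p = 0.320). SMCHD1, REST and DNMT3B, which hold cluster promoters silent or methylate them, had 0.063, 0.063 and 0.22 (edgeR adjusted p = 0.720, 0.736 and 0.247). Among 29 tested partners and downstream proteins 2 rose and 2 fell, beside 16.5% of all tested genes in either direction. CYFIP2 of the actin-regulating WAVE complex and the Wnt co-receptor LRP5 rose by 0.54 and 0.41, whereas the WAVE subunit BRK1 and the GTPase RAC1 fell by 0.35 and 0.32 (edgeR adjusted p from 0.0135 to 0.0346). Of 25 tested genes beside or between the clusters 3 rose, PCDH1 and, by less than 0.5, GNPDA1 and FCHSD1, and 2 fell, HARS and SRA1. TAF7, which lies between the beta and gamma clusters, had a log2 fold change of 0.024 (edgeR adjusted p = 0.870), and HARS, upstream of the alpha cluster, fell by 0.54 (edgeR adjusted p = 0.00737). Marker lists of cell types were also read. Summed neuronal markers were 92.4 and 90.8 CPM in the controls against 121 and 142 with cadmium. Nearly all of it was TUBB3, a tubulin of neurons that many lines express, which rose by 0.53 (edgeR adjusted p = 0.0135), while 11 of the 13 neuronal markers had too few reads to test. Of 8 tested epithelial markers 2 rose, EPCAM and KRT15, and 1 fell, KRT7, of 3 tested fibroblast markers 0 passed, 0 of 5 leukocyte markers could be tested, and the 1 tested endothelial marker, TIE1, rose by 1.68 (edgeR adjusted p = 0.0160). Their part in the beta values was not tested.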

How the data were processed

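RNA was measured in 4 BEAS-2B libraries, 2 control and 2 with cadmium. Per the labels' protocols, total RNA went into TruSeq libraries. STAR 2.4, DESeq2, DESeq and build hg19 are named in the submitters' processing notes. For the counter, strand and shared exons, the step taken is not given in the sources used here. Per the file headers and values, the authors deposited whole-number read counts and RPKM per RefSeq gene and library. The authors' deposited comparison table holds mean RPKM, a log ratio read as log2, and raw and adjusted p-values.

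Counts were analysed in R 4.3.3 with edgeR 4.0.16 (filterByExpr, TMM, group alone, robust quasi-likelihood test) over 13663 genes with a threshold of 0.05. The SE was derived from the F statistic. CPM is scaled by TMM. The fit was tested on simulated data. Alternatives were a replicate block, other scalings and filters, thinning, DESeq2 1.42.0, limma-voom (limma 3.58.1), libraries left out in turn and, added after seeing the data, a crossed block. Nothing in the labels says that same-numbered libraries pair, so the main fit treated them as unpaired.

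Named with values were, per cluster, the 4 tested members with the highest mean CPM, the 2 with the smallest p, all C-type members, and pseudogenes and silent members. From each other list up to 4 passing genes with the largest change and CTCF, SMCHD1, REST and DNMT3B were drawn. Not all are printed, and further members are named where a count singled them out after their values were seen. The members and lists were chosen with earlier results of these data known. PCDHA3, PCDHA13, PCDHB6, PCDHB11, PCDHB17, PCDHB18, PCDHB19P, PCDHGB8P, PCDHGA12 and PCDHGC5 had no promoter entry.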

Additional observations from a re-analysis of the deposited data

How the results depend on the processing

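No member was called under the other scalings and filters, DESeq2, limma-voom or thinned counts. Leaving out each library gave 0 to 2 members higher (PCDHB2 and PCDHB16 without control replicate 1, PCDHGB1 without control replicate 2) and 0 to 1 lower (PCDHGC3 without control replicate 2). The library then alone in its group is assumed to vary like the other group. Over all genes it gave 369 to 1977 higher and 235 to 1791 lower, with the lowest counts without cadmium replicate 1, 594 and 295 without cadmium replicate 2, and the highest without control replicate 2. Scaling by library size alone gave 1445 higher and 682 lower, against 1209 and 1046, and moved the median of all genes from 0.0019 to 0.060. The deviations of same-numbered libraries correlated at -0.14 over 13663 genes. The replicate block gave 1073 higher and 811 lower genes, the crossed block 1551 and 1471, and both called 0 members.

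Of 23 tested members, 12 kept their sign under every alternative that tested them. The other 11 crossed 0 under at least 1 alternative. Leaving out each library gave -0.62 to 0.46 for PCDHA4, -0.12 to 0.28 for PCDHB10, -0.32 to 0.39 for PCDHB12, -0.53 to 0.39 for PCDHB15, -0.52 to 0.099 for PCDHGA1, -1.19 to 0.24 for PCDHGB2, -0.26 to 0.71 for PCDHGA8, -0.081 to 0.82 for PCDHGA9, -0.64 to 3.22 for PCDHGB6 and -0.30 to 0.074 for PCDHGB7. For PCDHGB3, tested only without replicate 2 of either group, it gave -0.43 and 0.27. It gave 0.074 to 2.34 for PCDHB2, 0.25 to 1.45 for PCDHB16 and -0.31 to -0.015 for PCDHGC3. DESeq2 gave 0.060 for PCDHA4, 0.091 for PCDHGB3 and 0.14 for PCDHGB6. Limma-voom gave -0.031 for PCDHB15, 0.10 for PCDHGB3 and 0.50 for PCDHGB6. The replicate block gave 0.086 for PCDHGB3 and 0.22 for PCDHGB6. The crossed block gave 0.15 for PCDHA4, -0.083 for PCDHB15 and 0.18 for PCDHGB6. Library size alone gave 0.00024 for PCDHGB3, and thinning gave 0.54 for PCDHGB6. The causes were not tested. Beta values stayed above 0 for all 9 tested genes under the replicate block, DESeq2 size factors and library size alone, but for 7 of 9 without control replicate 1 and 8 of 9 with limma-voom. Members near 1 CPM are limited by the depth of control replicate 2.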
